A study of Mus musculus with 16 samples.

Results

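The small leucine-rich proteoglycans examined here were 10 genes, taken by symbol from the table of all 20325 genes: Dcn (decorin), Bgn (biglycan), Aspn (asporin), Lum (lumican), Kera (keratocan), Fmod (fibromodulin), Omd (osteomodulin), Prelp, Ogn (osteoglycin) and Podn (podocan). Each had a row in the table. Polyadenylated RNA was sequenced from C3H10T1/2 cells, a mouse embryonic line of mesenchymal stem cell type, that had been transduced with a lentivirus carrying a histone H3 transgene and selected with puromycin. The 8 groups of 2 libraries each expressed H3.3G34W_K27R, H3.3G34W_K36R, H3.3G34R, H3.3G34W, H3.3K27R, H3.1G34W, H3.1WT or H3.3WT, so that the comparison cells H3.3WT and H3.1WT carried a transgene and had been selected as well. G34W and G34R replace the glycine at position 34 of the H3 tail with tryptophan or arginine, K27R and K36R replace a lysine with arginine, and the double mutants carry both changes on one tail. H3.1 is the variant deposited with DNA replication and H3.3 the variant deposited outside it. The labels call the populations stably transduced and do not say whether they were clones, nor whether the pairs of libraries are separate cultures, and the transgenes were added to cells whose own H3 genes were not stated to be changed. The series asks how H3.3 G34 mutations change transcription in these cells.

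Small leucine-rich proteoglycans are secreted proteins built of leucine-rich repeats that bind fibrillar collagens and shape how fibrils assemble. Dcn and Bgn carry chondroitin or dermatan sulfate chains, while Lum, Kera, Fmod and Omd can carry keratan sulfate. Several members also bind growth factors or cell surface receptors, and the family is made by fibroblasts and by cells of cartilage, bone, tendon and cornea.

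The deposited values were RSEM expected counts that had been scaled by median normalization, with an estimated 26.02 to 49.1 M reads per library. A value of 2.27 to 3.74, depending on the library, corresponded to 3 reads. Groups were compared as log2(value + 1) with limma over the 12670 genes whose mean value over the 16 libraries was at least 10, with Benjamini-Hochberg adjustment over those genes and a threshold of 0.05. A fold change on that scale understates the change of low genes. All 10 members passed this minimum. Kera passed it only through H3.3G34W_K27R, where it was high, with a mean of 0.603 over the other groups, so its values are given with no test and the counts of called members are over the other 9. The libraries of 5 groups were far closer to each other (SD of the log2 ratio 0.0432 to 0.0742 over genes of at least 1000 reads) than those of H3.3G34W (0.536), H3.1WT (0.489) and H3.1G34W (0.465). The H3.3WT pair entered as 1 sample. Over 2396 genes whose values were whole reads in both of its libraries a chi-square test gave p = 0.886, a difference within counting noise, and over all 11933 genes with enough reads it gave p = 6.1e-64. All p-values given here measure only how far these libraries spread, and that spread may be technical.

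Bgn was the most abundant member in each of the 8 groups when values were divided by the length of the longest coding transcript. In H3.3G34W_K27R the length-scaled order was Bgn (28388 per kb), Dcn (13161), Ogn (7292), Prelp (1650), Lum (1003), Aspn (804), Omd (427), Podn (108), Kera (50.6) and Fmod (7.54). In H3.3WT it was Bgn (34834 per kb), Ogn (13347), Prelp (10034), Aspn (3619), Omd (2072), Dcn (776), Fmod (515), Podn (48.7), Lum (45.5) and Kera (0). Dcn thus ranked second and Fmod last in the double mutant, against sixth and seventh in H3.3WT. Across the 16 libraries the highest value of Bgn was 2.40 times its lowest, while the same ratio was 316 for Fmod, 2391 for Dcn and 3249 for Lum. The lowest value of Lum was 1 read, in H3.1WT, and that of Fmod 5 reads, in H3.1G34W, so the sizes of their ratios are limited by depth. In bulk RNA, fewer cells expressing a gene and less RNA per cell cannot be told apart.

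**Figure D1:**
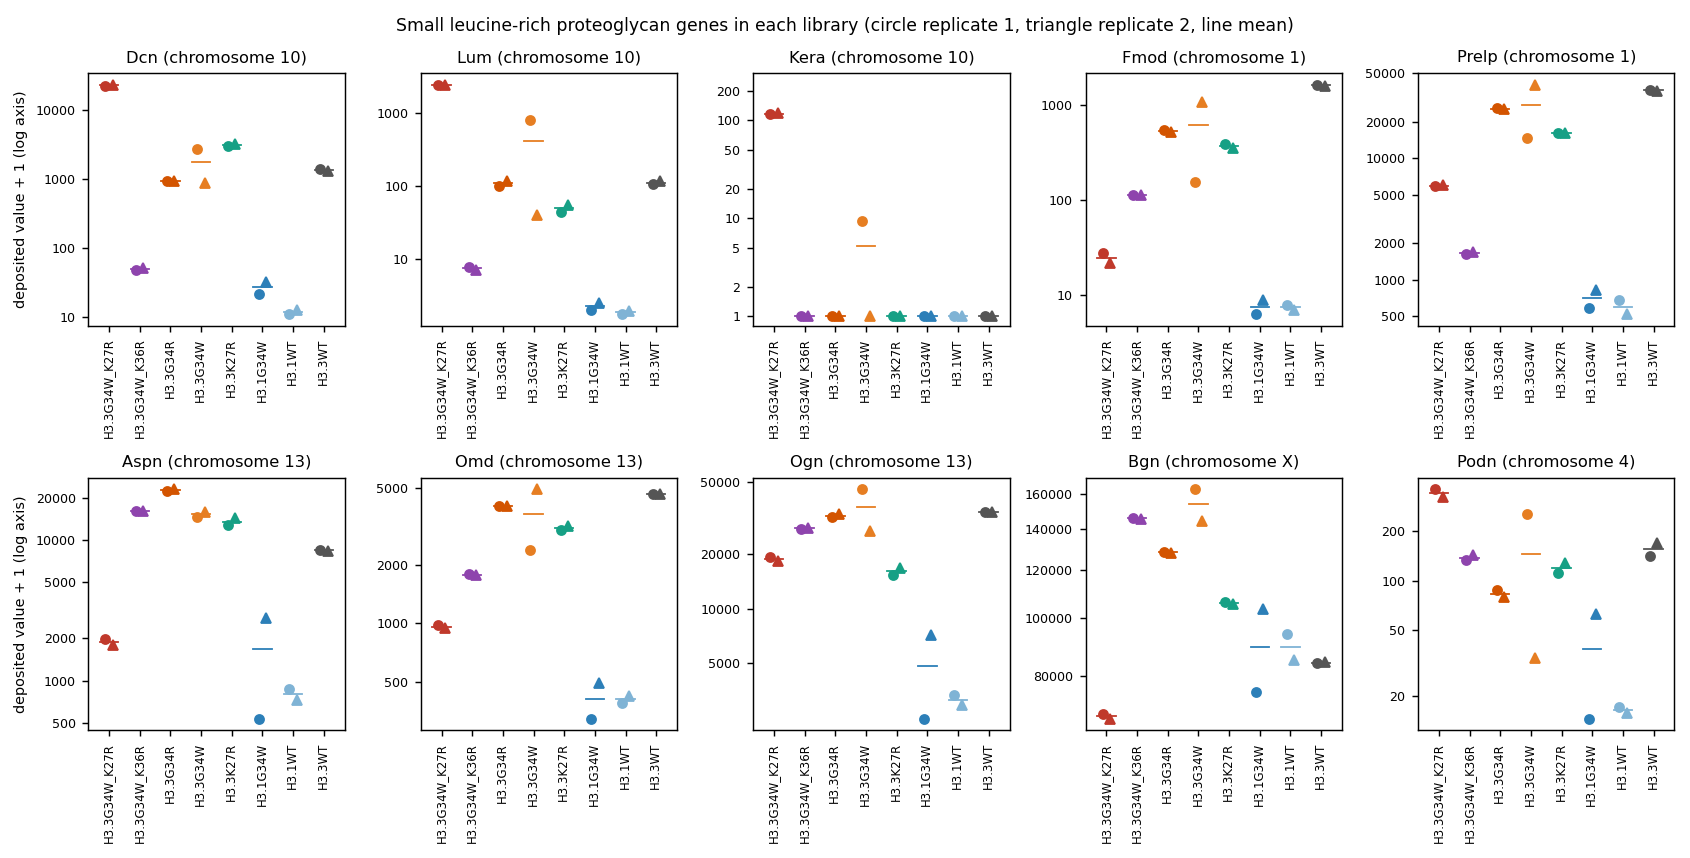
Deposited value plus 1 (log axis, a different range in each panel) of the 10 genes in each of the 16 libraries, by transgene group, with circles for replicate 1, triangles for replicate 2 and lines for the group mean. Dcn, Lum and Kera are highest in H3.3G34W_K27R, while Fmod is highest in H3.3WT and Bgn stays between 68059 and 163307.

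A moderated F test over the 8 groups passed the threshold for 9 of the 9 tested members, where 66.6% of all tested genes passed. Adjusted p-values of this F test ran from 4.8e-07 for Dcn to 0.016 for Podn. The pairwise comparisons below say which groups these differences lay between.

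Adding K27R to G34W changed 7 of the 9 tested members, 2 upward and 5 downward, where 21.6% of all tested genes passed, 9.24% upward and 12.4% downward. The family split: Dcn and Lum of chromosome 10 were higher in H3.3G34W_K27R, and Fmod, Aspn, Prelp, Omd and Bgn were lower. When the spread was taken from the compared groups alone, 3 members were called, Dcn, Bgn and Aspn, beside 6.62% of all genes. Dcn, whose protein limits collagen fibril diameter and binds TGF-beta, had 22703 and 23569 in H3.3G34W_K27R, against 2701 and 882 in H3.3G34W. This was a rise of 3.90 ± 0.40 on the log2 scale (SE, adjusted p = 9.1e-05), and the ratio of the group means was 12.9. Lum, which carries keratan sulfate and is needed for corneal transparency, had 2463 and 2446 in H3.3G34W_K27R, against 797 and 39.4 in H3.3G34W. Both double-mutant libraries lay above both H3.3G34W libraries, which themselves differed widely, and the log2 fold change was 3.77 ± 0.99 (SE, adjusted p = 0.022). Kera, a keratan sulfate proteoglycan best known from the cornea, had 115.1 and 115.8 in H3.3G34W_K27R, against 8.45 and 0 in H3.3G34W. The 9 reads of Kera in the first H3.3G34W library were the only ones outside the double mutant, and 13 of the 16 libraries held none.

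Fmod, which organises collagen fibrils and their cross-linking in tendon, had 26.6 and 20.4 in H3.3G34W_K27R, against 155 and 1065 in H3.3G34W. It was 25.9-fold lower by group means and fell by 4.07 ± 0.66 on the log2 scale (SE, adjusted p = 0.0017). Aspn, a class mate of Dcn that carries a run of aspartates in place of a glycosaminoglycan chain, had 1968 and 1778 in H3.3G34W_K27R, against 14695 and 15931 in H3.3G34W. Its H3.3G34W libraries were close to each other, and it fell by 3.03 ± 0.54 (SE, adjusted p = 0.0030). Prelp, which binds collagen and heparan sulfate, had 5867 and 6064 in H3.3G34W_K27R, against 14770 and 40329 in H3.3G34W, a log2 fold change of -2.03 ± 0.36 (SE, adjusted p = 0.0029). Omd, a keratan sulfate proteoglycan of bone, had 975 and 946 in H3.3G34W_K27R, against 2376 and 4926 in H3.3G34W, a log2 fold change of -1.83 ± 0.29 (SE, adjusted p = 0.0014). Bgn, which shares its chain type with Dcn and can activate Toll-like receptors when released, had 69280 and 68059 in H3.3G34W_K27R, against 163307 and 144708 in H3.3G34W. The libraries of the groups did not overlap, and Bgn fell by 1.16 ± 0.18 (SE, adjusted p = 0.0013), the smallest of the 7 called changes. Ogn and Podn did not pass the test. Ogn, a small member also called mimecan, had 19168 and 18253 in H3.3G34W_K27R, against 45713 and 26646 in H3.3G34W (log2 fold change -0.90 ± 0.40, SE, adjusted p = 0.14). Podn had 359 and 323 in H3.3G34W_K27R, against 254 and 32.8 in H3.3G34W (log2 fold change 1.88 ± 0.83, SE, adjusted p = 0.14). The median log2 fold change of the 9 tested members was -1.16, against -0.02 over all tested genes.

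The same 7 members passed when H3.3G34W_K27R was set against H3.3K27R, the cells with the K27R change alone, and in the same directions, where 26.2% of all tested genes passed, 11.7% upward and 14.5% downward. These comparisons share the double-mutant libraries, so they are not independent. Dcn had 22703 and 23569 in H3.3G34W_K27R, against 3035 and 3221 in H3.3K27R, and was 7.40-fold higher in the double mutant (log2 fold change 2.89 ± 0.40, SE, adjusted p = 7.6e-04). Lum had 2463 and 2446 in H3.3G34W_K27R, against 43.6 and 54.8 in H3.3K27R, and was 49.9-fold higher in the double mutant (5.62 ± 0.99 on the log2 scale, SE, adjusted p = 0.0027). Kera had 115.1 and 115.8 in H3.3G34W_K27R and no read in either H3.3K27R library, so that it was at least 30.9-fold higher in the double mutant, taking a floor of 3 reads per library. In these 3 genes no library of H3.3K27R came near those of the double mutant. Fmod had 26.6 and 20.4 in H3.3G34W_K27R, against 383 and 350 in H3.3K27R, and fell by 3.92 ± 0.66 (SE, adjusted p = 0.0021). Aspn had 1968 and 1778 in H3.3G34W_K27R, against 12788 and 14253 in H3.3K27R, and fell by 2.85 ± 0.54 (SE, adjusted p = 0.0041). Omd, Prelp and Bgn had log2 fold changes of -1.69 ± 0.29, -1.43 ± 0.36 and -0.62 ± 0.18 (SE, adjusted p = 0.0022, 0.016 and 0.030). Ogn had 19168 and 18253 in H3.3G34W_K27R, against 15241 and 16831 in H3.3K27R (log2 fold change 0.22 ± 0.40, SE, adjusted p = 0.71). Podn had 359 and 323 in H3.3G34W_K27R, against 111 and 127 in H3.3K27R (log2 fold change 1.51 ± 0.83, SE, adjusted p = 0.20). The median log2 fold change of the 9 tested members was -0.62, against 0.02 over all tested genes. When each close pair of libraries was counted as 1 sample, Dcn was the 1 member called against H3.3G34W, beside 2.74% of all genes, and 0 members and 0% of all genes were called against H3.3K27R. With 1 library of H3.3G34W_K27R left out, Lum was not called against H3.3G34W, and Prelp and Bgn were not called against H3.3K27R. The same held for Prelp and Bgn without 1 library of H3.3K27R, and for Bgn without 1 of H3.3G34W_K36R or H3.3G34R.

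The difference between the K27R effect on a G34W tail and on a wild-type tail was tested directly. It passed for 3 of the 9 tested members, where 7.95% of all genes passed, 2.72% upward and 5.22% downward. Dcn had an interaction of 2.71 ± 0.64 on the log2 scale (SE, adjusted p = 0.028), so the effect of K27R was more positive on the G34W tail. Aspn had -3.71 ± 0.86 (SE, adjusted p = 0.027) and Bgn -1.49 ± 0.29 (SE, adjusted p = 0.011), so the effect was more negative there. For Lum the interaction was 4.95 ± 1.57 (SE, adjusted p = 0.087). With any 1 library of H3.3G34W_K27R or H3.3K27R left out 0 members passed, beside 3.69% to 4.02% of all genes. With 1 of H3.3G34W_K36R or H3.3G34R left out 2 did (5.36% to 5.53% of all genes), and without the first H3.3G34W library 8 did (16.5% of all genes).

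**Figure D2:**
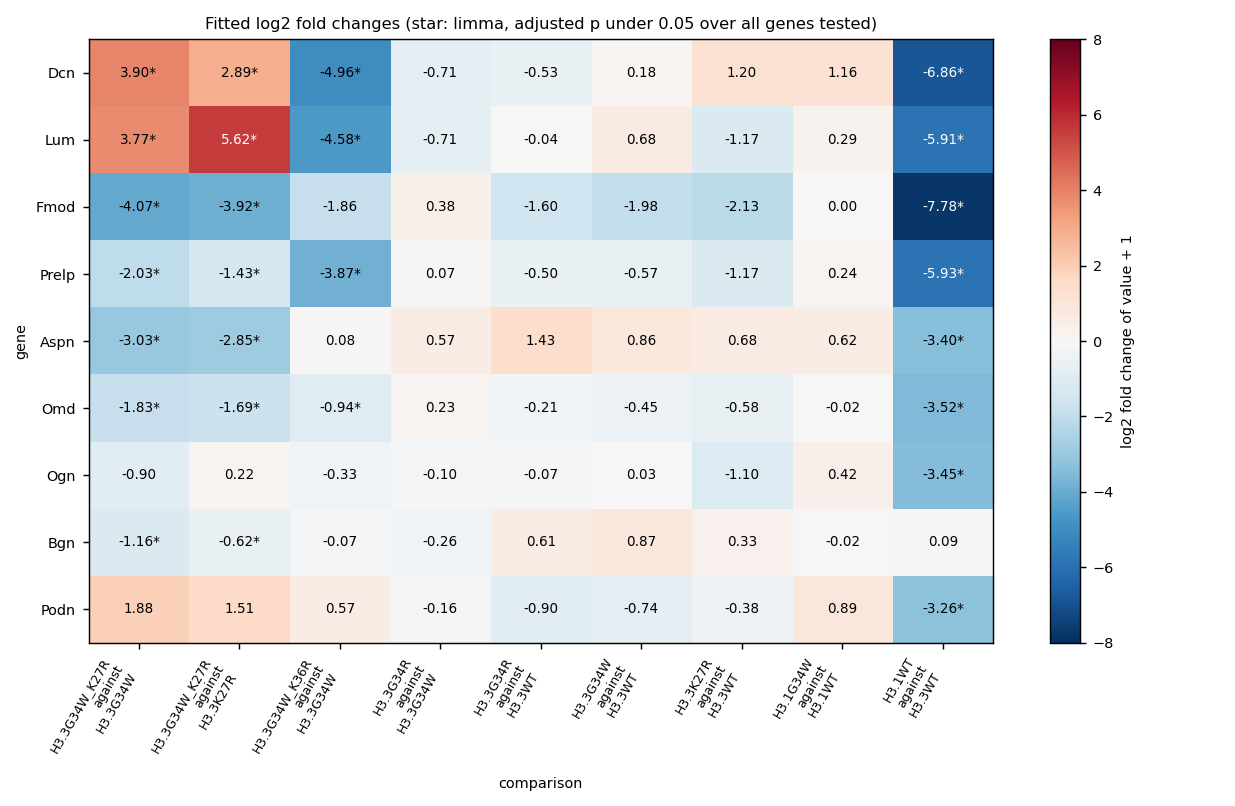
Fitted log2 fold changes of value plus 1 for the 9 tested genes (rows) in the 9 comparisons between groups (columns), with red higher and blue lower in the group named first, and a star where the adjusted p was under 0.05. The columns of the H3.3G34W_K27R double mutant hold 7 starred genes each, with Dcn and Lum positive, and H3.1WT against H3.3WT holds 8 starred genes, each negative.

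Adding K36R to G34W gave another pattern, with 4 of the 9 tested members called and each of them lower in H3.3G34W_K36R, where 30.6% of all genes were called and 16.2% were called lower. Dcn had 47.0 and 50.2 in H3.3G34W_K36R, against 2701 and 882 in H3.3G34W, a log2 fold change of -4.96 ± 0.40 (SE, adjusted p = 3.0e-05). Lum had 6.85 and 6.17 in H3.3G34W_K36R, against 797 and 39.4 in H3.3G34W, a log2 fold change of -4.58 ± 0.99 (SE, adjusted p = 0.0071). Dcn and Lum, which rose when K27R was added to G34W, thus fell when K36R was added. Prelp had 1637 and 1691 in H3.3G34W_K36R, against 14770 and 40329 in H3.3G34W, a log2 fold change of -3.87 ± 0.36 (SE, adjusted p = 7.3e-05). Omd had 1792 and 1778 in H3.3G34W_K36R, against 2376 and 4926 in H3.3G34W, a log2 fold change of -0.94 ± 0.29 (SE, adjusted p = 0.033). Fmod did not pass, with 112.5 and 110.2 in H3.3G34W_K36R, against 155 and 1065 in H3.3G34W (log2 fold change -1.86 ± 0.66, SE, adjusted p = 0.057). Aspn had 16204 and 16194 in H3.3G34W_K36R, against 14695 and 15931 in H3.3G34W, and Bgn had 146074 and 145825, against 163307 and 144708. Their log2 fold changes were 0.08 ± 0.54 and -0.07 ± 0.18 (SE, adjusted p = 0.92 and 0.78). Ogn and Podn did not pass either, at -0.33 and 0.57 on the log2 scale, and Kera had no read in H3.3G34W_K36R. The median log2 fold change of the 9 tested members was -0.94, against -0.03 over all tested genes. With each close pair counted as 1 sample 2 members, Dcn and Prelp, were called (1.04% of all genes), and the same 2 when the spread was taken from the compared groups alone (10.8%). Without the second H3.3G34W library Omd was not called (36.3% of all genes), while without the first one 6 members were called (29.2%). Omd was also not called when 1 library of H3.3G34W_K36R, H3.3G34W_K27R, H3.3G34R or H3.3K27R was left out.

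Cells with H3.1WT had lower values of 8 of the 9 tested members than cells with H3.3WT, where 33.4% of all genes were called and 17% were called lower. Fmod had 6.82 and 5.86 in H3.1WT, against 1638 and 1578 in H3.3WT, a log2 fold change of -7.78 ± 0.81 (SE, adjusted p = 1.3e-04). Dcn had 9.86 and 11.7 in H3.1WT, against 1403 and 1326 in H3.3WT, a log2 fold change of -6.86 ± 0.49 (SE, adjusted p = 1.9e-05). Prelp had 677 and 518 in H3.1WT, against 36445 and 36101 in H3.3WT, a log2 fold change of -5.93 ± 0.45 (SE, adjusted p = 2.3e-05). In each of these genes the H3.1WT libraries lay far under the H3.3WT libraries. Lum was counted with 2 reads in H3.1WT and 230 in H3.3WT, a ratio of normalised values of 0.00779 with an exact 95% counting interval of 9.4e-04 to 0.0285 (adjusted p = 0.0051 in limma). Counting intervals and floors cover counting error only. Omd, Ogn and Aspn had 386 and 424, 3344 and 2936, and 878 and 726 in H3.1WT, against 4667 and 4652, 34298 and 34199, and 8477 and 8378 in H3.3WT. Their log2 fold changes were -3.52 ± 0.35, -3.45 ± 0.49 and -3.40 ± 0.67 (SE, adjusted p = 1.1e-04, 7.5e-04 and 0.0041). Podn, a member first described in the kidney glomerulus, had 15.9 and 14.7 in H3.1WT, against 140 and 169 in H3.3WT, a log2 fold change of -3.26 ± 1.01 (SE, adjusted p = 0.032). Bgn stood apart from the others, with 93997 and 84984 in H3.1WT, against 84204 and 84321 in H3.3WT (log2 fold change 0.09 ± 0.22, SE, adjusted p = 0.79). It made up 94.6% and 94.8% of the summed values of the family in H3.1WT, against 49.1% and 49.4% in H3.3WT. Kera had no read in either group. The median log2 fold change of the 9 tested members was -3.52, also with Lum at its counting ratio, against -0.02 over all tested genes. With each close pair counted as 1 sample 5 members were called, namely Dcn, Fmod, Ogn, Prelp and Omd, beside 4.9% of all genes. Podn was not called when 1 H3.1WT library was left out, nor after quantile normalization.

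H3.1G34W was set against H3.1WT to see whether the same substitution acted on the other variant. limma called 0 of the 9 tested members and 0% of all genes, while 2015 of the 12670 genes had an unadjusted p under 0.05 and 1 member did. That member was Dcn, with 20.7 and 30.8 in H3.1G34W, against 9.86 and 11.7 in H3.1WT (log2 fold change 1.16 ± 0.40, SE, adjusted p = 0.30). Aspn had 536 and 2809 in H3.1G34W, against 878 and 726 in H3.1WT, and Ogn had 2468 and 7139, against 3344 and 2936. In both genes the first H3.1G34W library lay under the H3.1WT libraries and the second above them. Bgn had 75208 and 103421 in H3.1G34W, against 93997 and 84984 in H3.1WT, so its groups overlapped as well. Fmod had 5.18 and 7.70 in H3.1G34W, against 6.82 and 5.86 in H3.1WT. Without the first H3.1G34W library 2 members, Ogn and Aspn, were called, beside 19.6% of all genes. The G34W effect on H3.1 minus that on H3.3 passed for 0 of the 9 tested members, where 0.197% of all genes passed, and 1 member had an unadjusted p under 0.05. Without the second H3.3G34W library that test passed for 3 members, Lum, Fmod and Prelp, beside 6.28% of all genes, and without the first one or either H3.1G34W library for 1, beside 0.284% to 6.74%.

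The single H3.3 mutants against H3.3WT gave 0 called members in each of 3 comparisons by limma. The share of all genes called was 1.18% for H3.3G34W, 2.72% for H3.3G34R and 2.75% for H3.3K27R, and 2, 1 and 4 members had an unadjusted p under 0.05. Bgn had 163307 and 144708 in H3.3G34W and 128671 and 128152 in H3.3G34R, against 84204 and 84321 in H3.3WT. Both mutant pairs lay above H3.3WT, with log2 fold changes of 0.87 ± 0.22 (SE, adjusted p = 0.11) and 0.61 ± 0.22 (SE, adjusted p = 0.21). Aspn had 14695 and 15931 in H3.3G34W and 22389 and 23062 in H3.3G34R, against 8477 and 8378 in H3.3WT, with log2 fold changes of 0.86 ± 0.67 and 1.43 ± 0.67 (SE, adjusted p = 0.65 and 0.36). Fmod lay under H3.3WT in each single mutant. It had 551 and 512 in H3.3G34R, 155 and 1065 in H3.3G34W and 383 and 350 in H3.3K27R, against 1638 and 1578 in H3.3WT, with log2 fold changes of -1.60 ± 0.81, -1.98 ± 0.81 and -2.13 ± 0.81 (SE, adjusted p = 0.40, 0.33 and 0.26). These comparisons share the H3.3WT libraries. In H3.3K27R the libraries of Dcn (3035 and 3221, against 1403 and 1326 in H3.3WT) lay above H3.3WT, while those of Ogn (15241 and 16831, against 34298 and 34199) and Prelp (16229 and 16030, against 36445 and 36101) lay under it. Dcn was 2.29-fold higher by group means (adjusted p = 0.31 in limma), and the log2 fold changes of Ogn and Prelp were -1.10 ± 0.49 and -1.17 ± 0.45 (SE, adjusted p = 0.36 and 0.26). When the spread was taken from the compared groups alone, 7 members were called for H3.3G34R and 8 for H3.3K27R, where 60.7% and 55.4% of all genes were called in the same fits. With the H3.3WT libraries counted separately Bgn was called for H3.3G34W and for H3.3G34R, beside 7.55% and 10.4% of all genes. Without the first H3.3G34W library 3 members were called for H3.3K27R and 1 for H3.3G34R, beside 6.95% and 7.78% of all genes, and without the second 4 and 1, beside 6.96% and 7.79%. With either H3.1G34W library left out 2 members were called for H3.3G34W, 1 for H3.3G34R and 1 for H3.3K27R, where 3.39% to 5.62% of all genes were called.

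H3.3G34R differed from H3.3G34W in 0 of the 9 tested members, where 0.845% of all genes were called, and no member had an unadjusted p under 0.05. Without the second H3.3G34W library 4 members were called, namely Dcn, Lum, Fmod and Prelp, beside 8.41% of all genes. Dcn had 948 and 940 in H3.3G34R, against 2701 and 882 in H3.3G34W (log2 fold change -0.71 ± 0.40, SE, adjusted p = 0.84). Prelp had 25755 and 25458 in H3.3G34R, against 14770 and 40329 in H3.3G34W (log2 fold change 0.07 ± 0.36, SE, adjusted p = 0.998). In Dcn and Prelp both H3.3G34R libraries lay between those of H3.3G34W, which themselves lay far apart. In Bgn and Aspn they did not.

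The libraries of H3.3G34W disagreed with each other in most of the family. In 7 of 10 members they differed by more than 2-fold, as did 17.2% of all tested genes, and the median absolute log2 difference was 1.53 for the members and 0.395 for all tested genes. The counts over 10 members and their median include the untested Kera. Lum had 797 in the first library and 39.4 in the second, Fmod had 155 and 1065, Podn had 254 and 32.8, and Prelp had 14770 and 40329. In H3.1G34W 3 of 10 members differed by more than 2-fold (15% of all tested genes), and in the other 6 groups 0 did. On the log2 scale the first H3.3G34W library was nearer than the second to the H3.3G34W_K27R mean in 8 of 10 members, Bgn and Ogn being the exceptions, and in 50.4% of all tested genes. Kera, which was high only in H3.3G34W_K27R, is among the 8. The first H3.3G34W library was nearer to H3.3WT in 2 of 10 members, Aspn and Podn, and in 39.2% of all tested genes. Without the second library 6 of the 9 tested members were called against H3.3WT, where 12% of all genes were called in the same fit. Dcn, Lum and Bgn were higher, with log2 fold changes of 0.98, 2.83 and 0.95, and Fmod, Prelp and Omd were lower, with -3.37, -1.30 and -0.97. Without the first library 0 were, beside 2.61% of all genes, and the values of Dcn, Lum, Prelp and Omd had the opposite sign, at -0.63, -1.48, 0.15 and 0.08. The lone remaining library is taken in these fits to vary like the other groups.

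**Figure D3:**
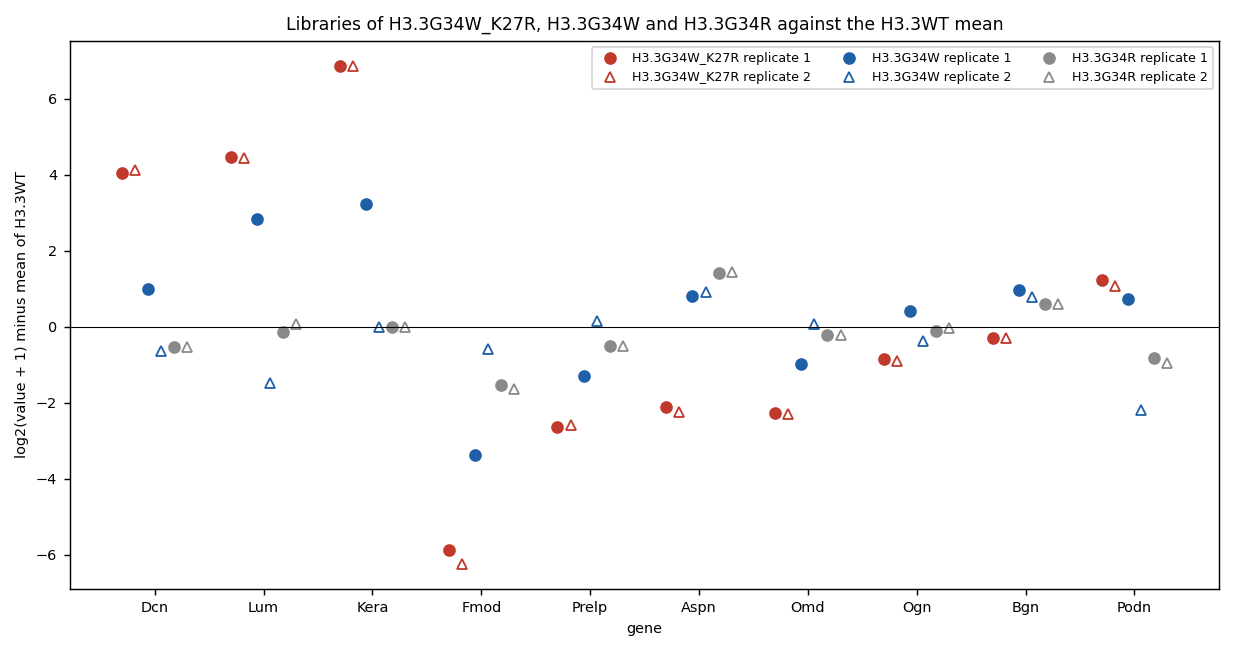
Difference in log2(value + 1) from the H3.3WT mean for each library of H3.3G34W_K27R (red), H3.3G34W (blue) and H3.3G34R (grey), with filled circles for replicate 1 and open triangles for replicate 2. The blue circle lies on the side of the red points for Dcn, Lum, Kera, Fmod, Prelp, Omd and Podn, while the blue triangle for Lum lies at -1.48 and the one for Podn at -2.20.

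Some markers of other cell types moved with these values. The summed value of 8 adipocyte genes was 12690 to 12780 in H3.3G34W_K27R, 22861 in the first and 3365 in the second library of H3.3G34W, 2214 to 2228 in H3.3K27R and 2895 to 2936 in H3.3WT. Adipoq, the adipocyte hormone adiponectin, had 1358 and 1288 in H3.3G34W_K27R, 4082 and 7.65 in H3.3G34W, 10.6 and 9.97 in H3.3K27R, and 19.4 and 19.4 in H3.3WT. The 3 libraries with the highest Lum values were thus the 3 with the highest adipocyte sums, and 6 of the 8 adipocyte genes were called higher in H3.3G34W_K27R than in H3.3K27R (11.7% of all genes), while Plin1 and Cfd were at 0 in H3.3K27R. Against H3.3G34W 1 of the 8 was called (21.6% of all genes), and it was lower. This was Cebpa, with 806 and 849 in H3.3G34W_K27R, 1953 and 1667 in H3.3G34W and 1149 and 1169 in H3.3WT. Chondrocyte markers, 7 genes, summed to 13973 to 14956 in H3.3G34W_K27R, 17278 to 17595 in H3.3G34W_K36R, 15235 and 86963 in H3.3G34W, 12894 to 16505 in H3.1WT and 61063 to 61333 in H3.3WT. Acan and Matn1 were at 0 in H3.3G34W_K27R, H3.3G34W_K36R and H3.1WT. Both were near the floor in H3.3WT as well, Acan with 4.84 and 2.91 and Matn1 with 0.968 and 0. Of the 5 chondrocyte genes tested, 4 were called lower in H3.3G34W_K36R than in H3.3G34W (16.2% of all genes). In H3.1WT 4 were called lower than in H3.3WT (17% of all genes). Where Fmod was low, in both double mutants, H3.1WT and the first H3.3G34W library, the chondrocyte sum was thus low as well. That sum was mostly Col2a1 and Sox9. Sox9 did not follow Fmod: it had 8461 and 9103 in H3.3G34W_K27R, 9338 and 9433 in H3.3WT and 4693 and 4472 in H3.3K27R. In H3.3G34W_K27R 3 of the 5 were called lower against H3.3G34W (12.4% of all genes). Against H3.3K27R 2 were called lower and 1 higher (26.2% of all genes called). The 4 tenocyte genes did not move together. Tnmd, a membrane protein of tendon cells, had 119 and 109.9 in H3.3G34W_K27R, 348 and 321 in H3.3G34W_K36R, 655 and 8300 in H3.3G34W, 149 and 80.1 in H3.1WT and 6415 and 6630 in H3.3WT. Scx, a transcription factor of tendon cells, had 14.4 and 9.73 in H3.3G34W_K27R, 537 and 512 in H3.3G34W_K36R, 23.5 and 301 in H3.3G34W, 554 and 829 in H3.1WT and 182 and 163 in H3.3WT. In H3.3G34W_K36R and H3.1WT Scx was thus high where Tnmd was low, while in H3.3G34W_K27R both were low. Thbs4 was at 0 in both double mutants and in H3.1WT, and near the floor in H3.3WT as well (1.94 and 0). The 4 smooth muscle genes were split as well, and their sum of 160306 to 161337 in H3.3G34W_K36R, 63181 to 67177 in H3.3G34W, 193279 to 253868 in H3.1WT and 49092 to 49283 in H3.3WT was mostly Acta2. In H3.1WT against H3.3WT 2 of the 4 were called higher and 1 lower, where 33.4% of all genes were called. The lower one was Cnn1, with 1.52 and 2.93 in H3.1WT, against 93.9 and 93.0 in H3.3WT. In H3.3G34W_K36R against H3.3G34W 2 were called higher and 0 lower, where 30.6% of all genes were called. The part of these cell states in the results was not tested. Endothelial markers summed to at most 75.5 and leukocyte markers to at most 56.9 in any library, and mesenchymal markers, from the line's own lineage, to 314495 to 627492. The mesenchymal sum was mostly Vim and Col1a1. Nt5e of that list was low in each group, with means from 1.04 in H3.3G34W_K27R to 12.3 in H3.3K27R.

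**Figure D4:**
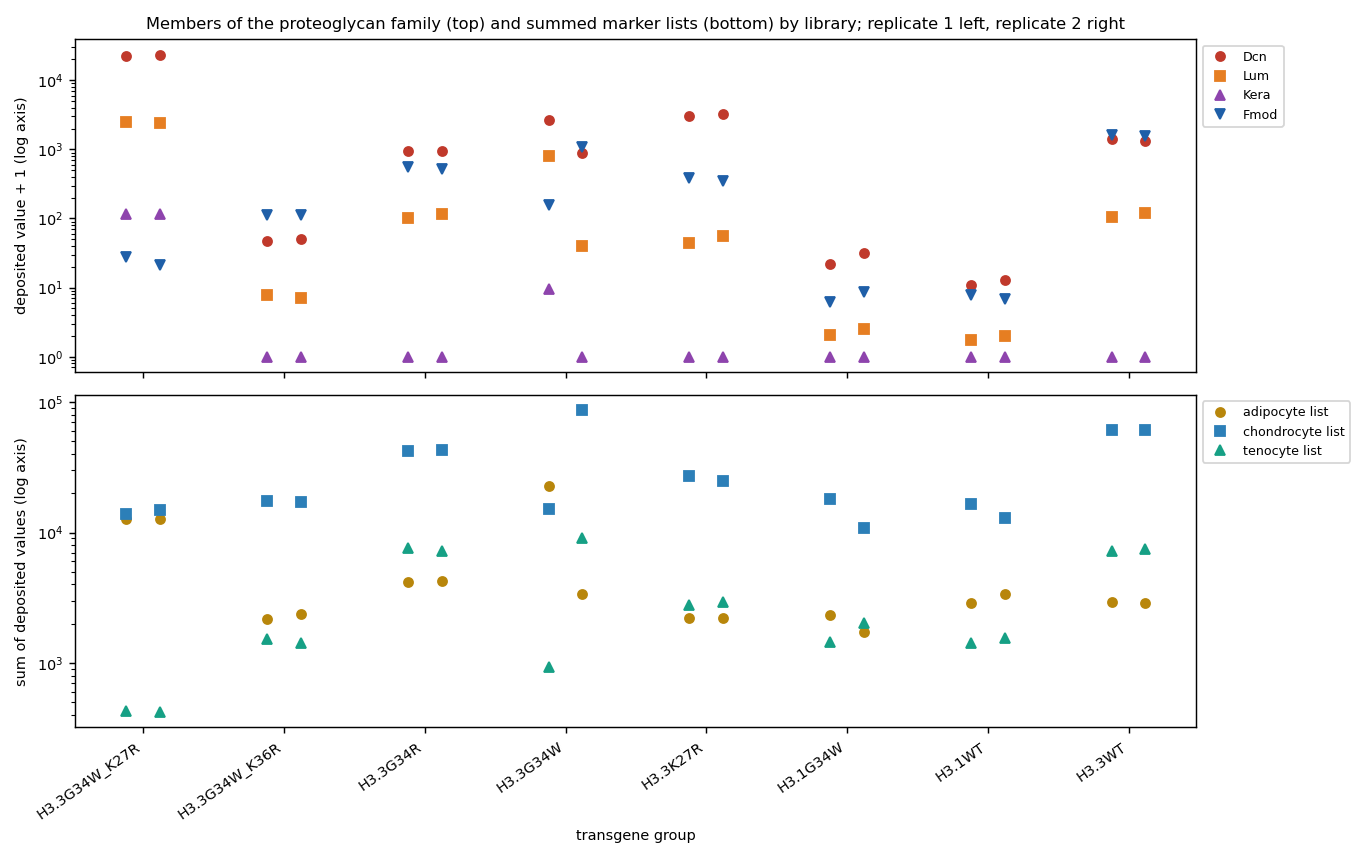
Upper panel: deposited value plus 1 (log axis) of Dcn, Lum, Kera and Fmod in each library, with replicate 1 left of replicate 2; lower panel: summed deposited values (log axis) of the adipocyte, chondrocyte and tenocyte marker lists in the same libraries. The adipocyte sum reaches 22861 in the first H3.3G34W library and 12690 to 12780 in H3.3G34W_K27R, where Lum is also high and Fmod and the tenocyte sum are low.

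In the order of coding genes of the GRCm38.p6 annotation, 8 members lie in 3 clusters: Dcn, Lum and Kera are adjacent on chromosome 10, Aspn, Omd and Ogn on chromosome 13, and Prelp and Fmod on chromosome 1. Bgn is alone on chromosome X and Podn on chromosome 4. Across the 8 group means of log2(value + 1) Dcn and Lum had a Pearson correlation of 0.96, and Fmod correlated with Omd at 0.99 and with Prelp at 0.91, although Omd lies on another chromosome than Fmod. Omd correlated with its neighbours Aspn and Ogn at 0.91 and 0.91. Bgn correlated with Dcn at -0.17 and Kera with Fmod at -0.23. These are descriptions over 8 points that share libraries and scaling. Among all tested genes the profiles most like those of the members were Scamp5 for Lum (0.998), Il16 for Prelp (0.997), Nme4 for Dcn (0.995) and Copz2 for Fmod (0.991), and the one most like that of Bgn was Idh1 (0.951). The coding gene after Kera is Epyc and the one before Aspn is Ecm2, both further genes of leucine-rich repeat proteins of the matrix. Epyc had 91.0 and 92.4 in H3.3G34W_K27R, 3.91 and 0.882 in H3.3G34W_K36R and 343 and 53.6 in H3.3G34W. It fell by 5.49 ± 0.84 (SE, adjusted p = 0.0013) in H3.3G34W_K36R against H3.3G34W, as its neighbours Dcn and Lum did. In H3.3G34W_K27R, where Dcn and Lum rose, Epyc was not called and lay between the H3.3G34W libraries. Ecm2 had 121 and 129 in H3.3G34W_K36R, against 2474 and 584 in H3.3G34W, a log2 fold change of -3.26 ± 0.52 (SE, adjusted p = 0.0016), while Aspn next to it stayed at 0.08 ± 0.54.

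Promoters were read for the members with an entry in the RefSeq table (GRCm38.p6), which were 8 of 10, as the 250 bases before the annotated start. Those printed are of Bgn, the member whose values varied least, of Fmod and Omd, the members with the most similar profiles, and of Aspn, which lies next to Omd and fell with both in H3.3G34W_K27R. Each runs 5′ to 3′ on the strand of its gene, which is the plus strand, and holds no base of an annotated exon. Capitals mark TATAAA and CCAAT on either strand.
Bgn, chrX:73483351-73483600: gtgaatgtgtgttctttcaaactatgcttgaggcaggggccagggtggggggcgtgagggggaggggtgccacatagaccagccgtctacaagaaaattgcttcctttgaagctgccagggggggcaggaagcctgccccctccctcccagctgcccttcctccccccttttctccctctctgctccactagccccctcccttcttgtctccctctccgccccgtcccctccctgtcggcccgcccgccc
Fmod, chr1:134037004-134037253: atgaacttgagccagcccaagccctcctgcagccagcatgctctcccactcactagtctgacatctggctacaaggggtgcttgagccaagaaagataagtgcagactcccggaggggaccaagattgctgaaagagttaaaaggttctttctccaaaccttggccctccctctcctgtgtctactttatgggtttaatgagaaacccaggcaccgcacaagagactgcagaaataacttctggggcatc
Omd, chr13:49582212-49582461: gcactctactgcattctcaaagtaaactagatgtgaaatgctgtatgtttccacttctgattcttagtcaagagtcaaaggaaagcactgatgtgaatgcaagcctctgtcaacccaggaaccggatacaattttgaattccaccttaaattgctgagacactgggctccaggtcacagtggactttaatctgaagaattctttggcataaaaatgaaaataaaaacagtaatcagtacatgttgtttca
Aspn, chr13:49544193-49544442: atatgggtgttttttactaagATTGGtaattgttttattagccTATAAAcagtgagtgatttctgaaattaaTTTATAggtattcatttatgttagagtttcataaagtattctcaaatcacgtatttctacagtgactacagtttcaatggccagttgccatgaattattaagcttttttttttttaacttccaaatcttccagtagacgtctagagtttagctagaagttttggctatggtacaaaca
G and C made up 64.4% of the Bgn window, 51.2% of that of Fmod, 38.4% of that of Omd and 30.0% of that of Aspn. TATAAA, searched on both strands, was found for Aspn and Ogn and occurs in 12.4% of the 32851 promoters of the same length in the table. CCAAT was found for Aspn, Kera and Prelp and occurs in 33.8%. All 250 bases of the Kera window and 13 of that of Prelp lie in annotated exons. TGANTCA, where N is any base, was found for none of the 8 genes and occurs in 6.75%. Fmod and Omd, whose values moved together, held neither of the motifs marked. A match or its absence describes these letters in this window only.

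The enzymes that build the sugar chains of these proteins, their proteases and their binding partners were counted from lists. Of 20 tested enzymes of the linker and of chondroitin or dermatan sulfate, 7 were called in H3.3G34W_K27R against H3.3G34W (21.6% of all genes), 1 higher and 6 lower, with a list median of -0.31. Against H3.3K27R 3 were called (26.2% of all genes), 2 higher and 1 lower. Chst11, a chondroitin 4-O-sulfotransferase, had 2104 and 1999 in H3.3G34W_K27R, 4882 and 4787 in H3.3G34W and 1383 and 1447 in H3.3K27R. It fell by 1.24 ± 0.17 (SE, adjusted p = 5.5e-04) against H3.3G34W and was 0.54 ± 0.17 higher (SE, adjusted p = 0.041) than in H3.3K27R. In H3.3G34W_K36R against H3.3G34W 11 of the 20 were called (30.6% of all genes), 2 higher and 9 lower. Among the 9 were Chst11 (-2.96 ± 0.17, SE, adjusted p = 5.1e-06) and Xylt1, a xylosyltransferase that starts the chains (adjusted p = 0.026). Xylt1 had 0.978 and 0 in H3.3G34W_K36R, against 2.82 and 37.2 in H3.3G34W. The 2.82 is only 3 reads, so its call rests on the second H3.3G34W library. In H3.1WT against H3.3WT 12 were called (33.4% of all genes), 5 higher and 7 lower. Xylt1 is counted among the 7 but reached the minimum mean only through H3.3WT, where it was high. Its values are therefore given with no test: 0.758 and 0 in H3.1WT, against 99.7 and 75.6 in H3.3WT. Of 9 tested enzymes of keratan sulfate, 2 were called in H3.3G34W_K27R against H3.3G34W (21.6% of all genes) and 4 in H3.3G34W_K36R against H3.3G34W (30.6%), where the sulfotransferase Chst1 rose by 2.11 ± 0.21 (SE, adjusted p = 1.2e-04). In the single mutants against H3.3WT, with 0 members called, 2 of the 20 chain enzymes were called in H3.3G34W (1.18% of all genes), 3 in H3.3G34R (2.72%) and 1 in H3.3K27R (2.75%). Chst11 and the dermatan sulfotransferase Chst14 were higher in H3.3G34W, at 1.11 ± 0.21 and 1.02 ± 0.19 (SE, adjusted p = 0.040 and 0.039). They were also higher in H3.3G34R, at 1.06 ± 0.21 and 0.95 ± 0.19 (SE, adjusted p = 0.027 and 0.027), as was Dsel, at 0.83 ± 0.17 (SE, adjusted p = 0.034). Csgalnact1, which starts chondroitin chains on the linker, was lower in H3.3K27R, at -1.17 ± 0.17 (SE, adjusted p = 0.0047).

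Among the 6 tested other leucine-rich repeat genes of the family, Tsku (tsukushi) was the 1 called in H3.3G34W_K27R against H3.3G34W, where 21.6% of all genes were called. It had 1024 and 1070 in H3.3G34W_K27R, against 279 and 265 in H3.3G34W, a rise by 1.94 ± 0.16 (SE, adjusted p = 1.9e-05). In H3.1WT against H3.3WT 5 of the 6 were called (33.4% of all genes), 2 higher and 3 lower, where 8 members were lower and 0 higher. A one-sided fall was not particular to the members. Of 10 tested fibrillar collagen genes 5 were called in that comparison, 0 higher and 5 lower, with a list median of -2.25. Of 20 tested partners, growth factors and receptors that these proteoglycans bind among them, 6 were called in H3.3G34W_K27R against H3.3G34W (21.6% of all genes). Met, a receptor to which decorin binds, had 2886 and 2794 in H3.3G34W_K27R, against 282 and 436 in H3.3G34W, and rose by 3.01 ± 0.29 (SE, adjusted p = 6.5e-05). Tgfb2 fell by 1.71 ± 0.11 (SE, adjusted p = 4.7e-06) and Eln, elastin, by 3.89 ± 0.33 (SE, adjusted p = 2.7e-05). Of 10 fibrillar collagen genes 2 were called, near the 21.6% over all genes, both lower: Col5a3 at -2.70 ± 0.28 and Col27a1 at -1.94 ± 0.24 (SE, adjusted p = 1.0e-04 and 2.8e-04). Of 11 tested proteases that cut or process members 3 were called, near that share too. Bmp1, which cleaves the biglycan propeptide, was lower at -0.78 ± 0.13 (SE, adjusted p = 0.0017). Mmp9 is counted among the 3 but reached the minimum mean only through H3.3G34W_K27R, so its values are given with no test. It had 43.3 and 41.8 in H3.3G34W_K27R, against 6.57 and 2.19 in H3.3G34W. In H3.3G34W_K36R against H3.3G34W the same lists gave 3 of 6, 8 of 20, 6 of 10 and 4 of 11, where 30.6% of all genes were called, with Eln at -11.03 ± 0.33 (SE, adjusted p = 1.2e-07) and Pcolce2 at -5.92 ± 0.25 (SE, adjusted p = 8.6e-07).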

How the data were processed

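The members, gene lists and tests were chosen with earlier results of these data known. Messenger RNA of 16 libraries was measured, 2 for each of 8 transgenes. The deposited values are a signal per gene: per the submitters' processing notes expected counts came from RSEM 1.2.4 with mm9 as the authors' build, and the name of the deposited table says median-normalized. Aligner, annotation and filters are not given in the sources used here. The values were expected counts times 1 constant per library, and 41.5% to 47.5% of those above 0 were within 0.01 of whole reads, so no count test was run. A second deposited table held identical values for 180 genes, Kera being the 1 member among them.

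limma 3.58.1 in R 4.3.3 (statmod 1.5.0; eBayes with trend and robust) was fitted to log2(value + 1) of all groups at once, with 15 samples and 7 residual degrees of freedom, two-sided, and was tested on simulated data. The simulation gave each group the same spread, unlike these libraries, so it does not test how the shared estimate of the spread performs here. Kera, which reached the minimum mean only through the group where it is high, was described and left out of the counts of called members, a choice made after its values were seen. Genes of the other lists were not screened in this way, so the counts over those lists include such genes, Mmp9 and Xylt1 among them. There were 9 comparisons between groups, 2 interactions and an F test. All members are named; from the other lists, up to 4 genes per list and comparison with the largest called changes; and for each member the tested genes most correlated with it. Alternatives were the pseudocount, low-value filter, normalization, moderation, pair counting, replicate block, compared groups alone and leaving out each library. Replicate numbers did not pair the samples. Lengths came from GENCODE M21 (GRCm38) and promoters from RefSeq; mm9 coordinates were not used here.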

Additional observations from a re-analysis of the deposited data

Results flagged for a closer look

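The effect of K27R differed between the G34W and the wild-type H3.3 tail for 3 members by the interaction test. Dcn had an interaction of 2.71 on the log2 scale, with 22703 and 23569 in H3.3G34W_K27R, 2701 and 882 in H3.3G34W, 3035 and 3221 in H3.3K27R and 1403 and 1326 in H3.3WT. Aspn had -3.71, with 1968 and 1778 in H3.3G34W_K27R, 14695 and 15931 in H3.3G34W, 12788 and 14253 in H3.3K27R and 8477 and 8378 in H3.3WT. Bgn had -1.49, with 69280 and 68059 in H3.3G34W_K27R, 163307 and 144708 in H3.3G34W, 106355 and 105291 in H3.3K27R and 84204 and 84321 in H3.3WT. The H3.3WT pair entered as 1 sample, and with each close pair counted as 1 sample 0 members passed.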

How the results depend on the processing

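The 29 member calls in the comparisons and interactions kept their sign under each alternative that could be run, and 8 of them stayed past the threshold under each one: Dcn against H3.3G34W in both double mutants, Prelp in H3.3G34W_K36R, and Dcn, Fmod, Ogn, Prelp and Omd in H3.1WT against H3.3WT. Counts of members are over the 9 tested, each followed by the share of all genes called in the same fit. With each close pair of libraries counted as 1 sample, the members called were 1 for H3.3G34W_K27R against H3.3G34W (2.74%), 0 against H3.3K27R (0%), 2 for H3.3G34W_K36R against H3.3G34W (1.04%), 5 for H3.1WT against H3.3WT (4.9%) and 0 for the K27R interaction (0.0237%). In fits of the compared groups alone they were 3 for H3.3G34W_K27R against H3.3G34W (6.62%), 2 for H3.3G34W_K36R against H3.3G34W (10.8%), 7 for H3.3G34R (60.7%) and 8 for H3.3K27R (55.4%) against H3.3WT. With the H3.3WT libraries separate, 1 was called for H3.3G34W (7.55%) and 1 for H3.3G34R (10.4%) against H3.3WT. The cause was not tested. Replicate numbers did not pair the libraries (correlations of replicate differences over 28 pairs of groups from -0.265 to 0.0598), and a replicate block with the H3.3WT libraries separate gave 1 for H3.3G34W against H3.3WT (6.33%) and 5 for the K27R interaction (14.2%).

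Leaving out 1 library in turn gave 0 to 6 for H3.3G34W (0.395% to 12%), 0 to 1 for H3.3G34R (0.592% to 7.79%) and 0 to 4 for H3.3K27R (0.797% to 6.96%) against H3.3WT, 0 to 4 for H3.3G34R against H3.3G34W (0.0237% to 8.41%) and 0 to 2 for H3.1G34W against H3.1WT (0% to 19.6%). It gave 0 to 8 for the K27R interaction (3.69% to 16.5%) and 0 to 3 for the variant interaction (0.0237% to 7.16%). It gave 6 to 8 for H3.3G34W_K27R against H3.3G34W (10.3% to 27.7%), 5 to 7 against H3.3K27R (11.4% to 34.9%), 3 to 6 for H3.3G34W_K36R (13% to 38.5%), 7 to 8 for H3.1WT (27.7% to 42.8%) and 8 to 9 for the F test (51.3% to 76.3%). Values that were not called changed sign under some alternatives. The 1 change of sign in which the value was called under the alternative was Aspn in the variant interaction, -0.24 overall and -1.44 to 0.95 when 1 library was left out, the highest without the first H3.1G34W library. Members at a few reads, Kera outside H3.3G34W_K27R and Lum in H3.1WT and H3.1G34W, are limited by depth.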
